A study of Homo sapiens with 40 samples.

Results

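LINC genes carry the names given to long intergenic non-coding RNAs, RNA polymerase II transcripts from the genome between protein-coding genes that were catalogued as RNA without a recognised protein product. The genes described here were all those of the catalogue of transcript models whose identifier began with LINC followed by a digit or a hyphen and held no _ character. They were 103 of 9460 genes, with 215 of 19972 transcript models. No identifier of the LINC- form was found, so all 103 had a numbered name.

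The libraries came from embryonic stem cells (ESC) of the established human line H9 and from neural progenitor cells (NPC) made from it. The ESC are labelled as control, and the NPC as treated by dual-SMAD inhibition, which blocks TGF-beta and BMP signalling and drives pluripotent cells towards neural fate. From each cell type, polyadenylated RNA was taken from cytosol, monosomes, light polyribosomes (2 to 4 ribosomes) and heavy polyribosomes (5 or more ribosomes), in 16 long-read libraries (8 groups of 2) and 24 short-read libraries (8 groups of 3). The data used are the long-read set of transcript models, 1 catalogue with the positions of exons and of a coding region where one was given and no value for any library. Levels in ESC, NPC or the fractions were therefore not compared, the labelled cell types could not be checked against markers, depth is unknown, and the absence of a model does not show that a LINC gene was untranscribed. Models are structures and not molecules, so a gene's number of models says nothing of how much of its RNA was present.

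Most intergenic non-coding RNAs are capped, spliced and polyadenylated like messenger RNA, but they tend to have fewer exons, lower levels and a more restricted set of tissues than messenger RNA. Some act in the nucleus on chromatin or on a neighbouring gene, others in the cytoplasm on proteins, messenger RNA or microRNA, and for most no function is known. Some are found on ribosomes, and a few genes first named as LINC were later found to encode small proteins and were renamed. A coding region in a transcript model is a reading frame chosen by software, not measured translation.

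The LINC genes had 1 to 10 models each, with a mean of 2.09 ± 1.68 (SD over 103 genes). Of the 103, 54 had 1 model, 23 had 2, 11 had 3 and 15 had 4 or more. At least 2 models were listed for 49 genes (47.6%, 95% Wilson interval 38.2 to 57.1%), beside 50% of all 9460 genes. The intervals given here cover counting error only, and genes are not replicates. Among genes of other classes the share with at least 2 models was 51.1% for 8408 protein-coding genes, 44.1% for 236 genes with an antisense (-AS) name, 34.3% for 108 with a divergent-transcript (-DT) name and 28.3% for 237 listed by an Ensembl identifier alone. The LINC share thus lay near that of all genes.

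**Figure D1:**
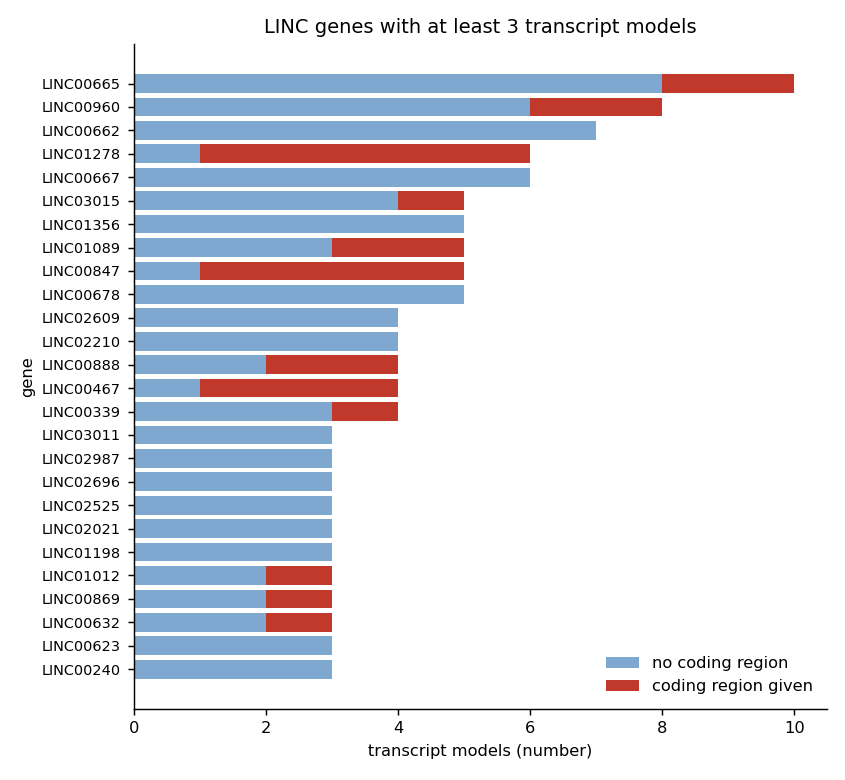
Transcript models (x axis, number) of each LINC gene with at least 3 of them (y axis), divided into models without a coding region (blue) and with one (red). LINC00665 had 10 models, 2 of them coding, while 5 of 6 models of LINC01278 and 4 of 5 of LINC00847 were coding.

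LINC models were short. Their median spliced length was 1036 nt (quartiles 774 and 1413.5 nt, range 342 to 2974 nt), beside 1537 nt over all models and 1608 nt over models of protein-coding genes. The medians of the other non-coding name classes were 989 nt (-AS), 938 nt (-DT) and 915 nt (Ensembl identifier). The median LINC model had 3 exons against 6 over all models, and 65 of 215 (30.2%, 24.5 to 36.7%) had only 2, beside 8.58% of all models. The same share was 36.1% for -AS, 37.9% for -DT, 46.8% for Ensembl-identifier and 6.24% for protein-coding models. Every model of the catalogue had at least 2 exons, so single-exon LINC RNAs could not appear.

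The first exon of a LINC model had a median of 242 nt, against 153 nt over all models. The last exon was shorter (467 nt against 594 nt) but made up a larger share of the RNA (53.7% against 43.4%). That share was higher still in the other non-coding name classes, at 65.0% (-AS), 57.5% (-DT) and 62.0% (Ensembl identifier). It was 42.1% for protein-coding models. The median last exon of these classes was 610, 425, 518 and 601 nt in the same order. The 331 distinct LINC introns had a median length of 3066 nt, against 1601 nt over all introns. LINC introns thus had a longer median than the introns of each other class (-AS 2744 nt, -DT 2638 nt, Ensembl identifier 2637 nt, protein-coding 1577 nt).

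**Figure D2:**
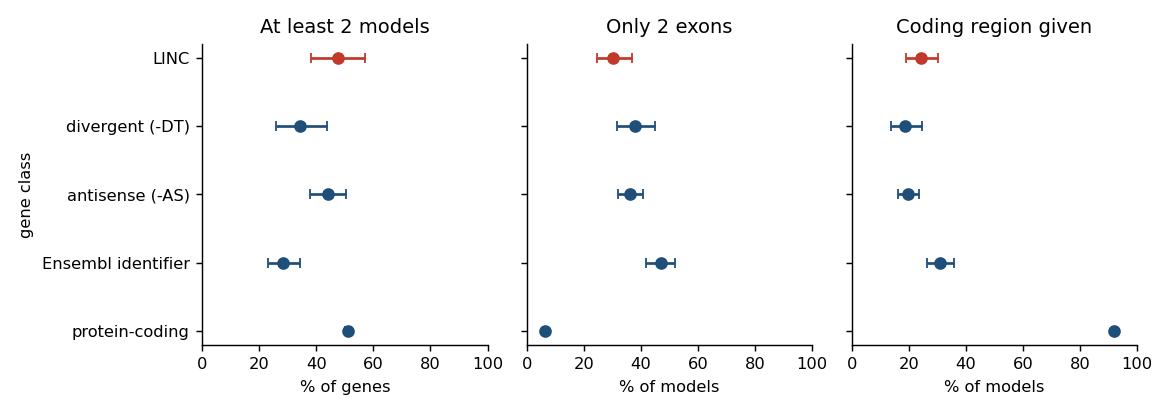
Share of genes with at least 2 models, of models with only 2 exons, and of models with a coding region (x axes, %) for 5 gene classes (y axis). Points are shares and bars 95% Wilson intervals, which cover counting error only. LINC (red) lay at 47.6%, 30.2% and 24.2%, and protein-coding genes at 51.1%, 6.24% and 92.1%.

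LINC00665, an RNA described in several tumours and reported to encode a micropeptide, had the most models. Its 10 models lay on the minus strand of chromosome 19 (36313062 to 36331727, as deposited). All of them began within 50 nt of each other, and the intron after the first exon was common to all. They then parted into 4 last exons that did not overlap. A cassette exon, one that some models include and others skip, was listed in a form of 93 nt and a form of 96 nt, whose acceptors lay 3 nt apart (36322130 to 36322222 and 36322130 to 36322225); both are divisible by 3. The 2 models that ended in an exon of over 2 kb, 2742 and 2785 nt long, were the coding ones, with regions of 117 and 140 codons at different places. Because every LINC00665 model began inside 1 window of 250 bases before to 50 bases after a start site in RefSeq (GRCh38.p14, chr19:36331669-36331968, minus strand), that window is printed here, 5′ to 3′. Capitals mark CCAAT (3 matches), GGGCGG (1 match) and TATAAA (none) on either strand.
LINC00665: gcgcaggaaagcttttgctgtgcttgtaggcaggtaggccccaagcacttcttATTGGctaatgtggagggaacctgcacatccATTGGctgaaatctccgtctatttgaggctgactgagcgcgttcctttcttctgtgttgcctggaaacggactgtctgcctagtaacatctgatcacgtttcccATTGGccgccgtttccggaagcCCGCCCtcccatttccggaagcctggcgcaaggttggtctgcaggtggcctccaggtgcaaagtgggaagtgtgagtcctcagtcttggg

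LINC00960, the gene with the second most models, had 8 (chromosome 3, 75672247 to 75740867, plus strand). It held the most cassette exons of any LINC gene, with 4 of 45, 160, 117 and 161 nt. Of its models, 7 ended within 4 nt of each other near 75679303. The other model joined the shared first exon directly to an exon of 275 nt ending at 75740867, across an intron of 67823 nt. Both coding models gave the same region of 109 codons in the last exon. The span of this long model reached into ZNF717, a zinc finger gene on the opposite strand, without exon overlap.

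LINC00662, another RNA studied mostly in tumours, had 7 models (chromosome 19, 27721705 to 27793924, minus strand) and no coding region. Its models used 2 first exons, and 6 last exons that did not overlap, spread over 68791 nt. Of the 7, 6 shared the exons 27746098 to 27746340 (243 nt) and 27732796 to 27732967 (172 nt), and differed mainly in where they ended. The remaining model ended early in an exon of 1406 nt.

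**Figure D3:**
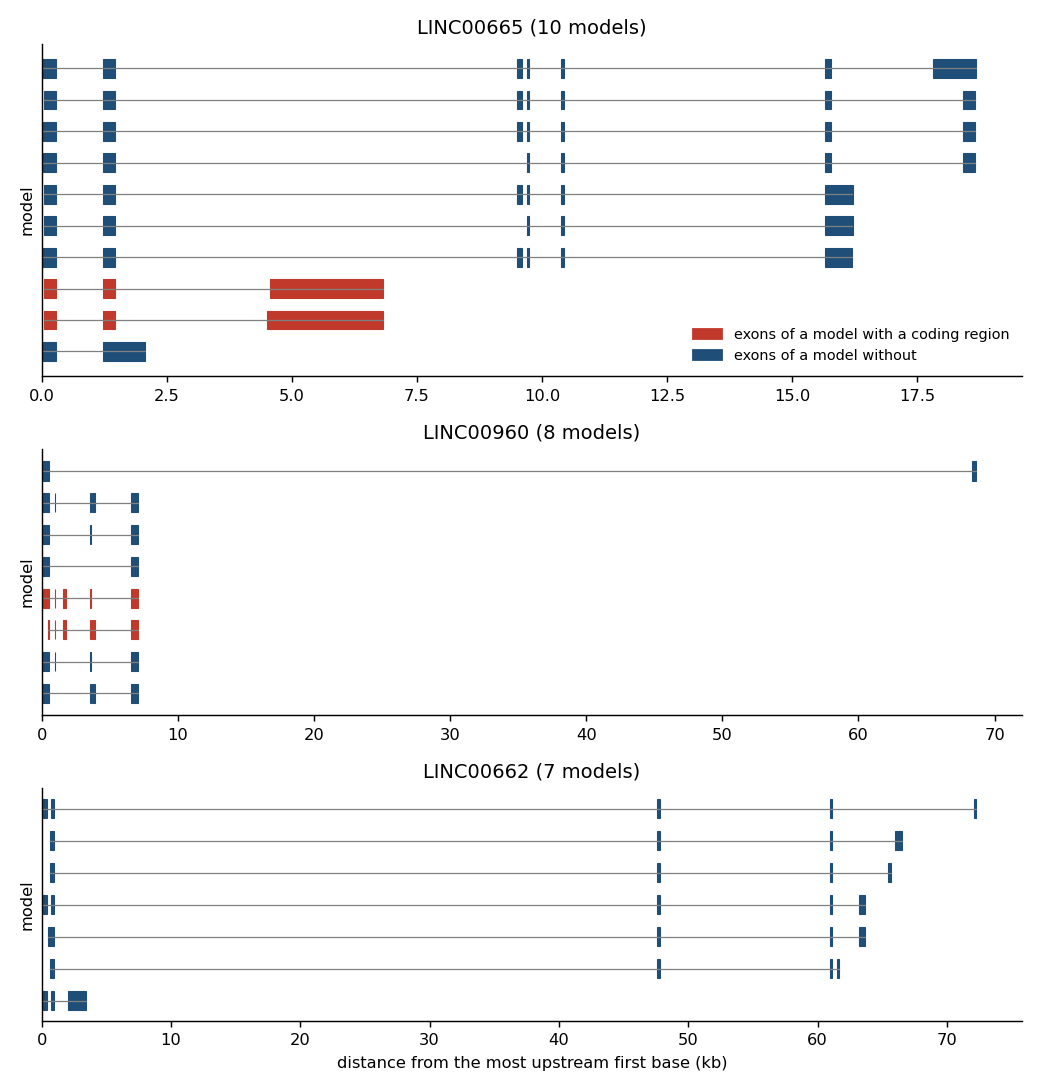
Exons (boxes) and introns (lines) of each model of LINC00665, LINC00960 and LINC00662, drawn to scale against the distance in kb from the most upstream first base; each row is a model, and models with a coding region are red. LINC00665 models shared a start and used 4 last exons, 1 LINC00960 model reached an exon 67823 nt away, and LINC00662 used 6 last exons.

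LINC00667 had 6 models (chromosome 18, 5238078 to 5243937, plus strand), all without a coding region. A cassette exon with 1 acceptor and 3 donors appeared as 317, 384 and 608 nt, and the first exon also used 3 donors, spread over 303 nt. LINC01278, on chromosome X (63426558 to 63561080, minus strand), had 6 models ending within 3 nt of each other. They began within 49 nt, and differed by cassette exons of 136 and 173 nt and by 3 acceptors of the last exon, 1985 nt apart at most. It also held the longest LINC model, of 2974 nt. Of its 6 models, 4 began inside a RefSeq start-site window (GRCh38.p14, chrX:63561046-63561345, minus strand), which is printed because it was among the few LINC windows with TATAAA; capitals mark the 2 matches, 1 on each strand.
LINC01278: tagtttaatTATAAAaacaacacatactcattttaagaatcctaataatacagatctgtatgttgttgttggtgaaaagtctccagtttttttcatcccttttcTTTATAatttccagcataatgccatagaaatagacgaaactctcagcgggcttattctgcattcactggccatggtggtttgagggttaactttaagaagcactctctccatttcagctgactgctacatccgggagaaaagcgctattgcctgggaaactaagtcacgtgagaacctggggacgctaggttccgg

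LINC00678, LINC00847, LINC01089, LINC01356 and LINC03015 had 5 models each. LINC00847 (chromosome 5, 180830731 to 180835726, plus strand) had 2 groups of first exons that did not overlap, the downstream group with 3 donors. Within that group, the first exon 180830988 to 180831229 did not overlap those starting at 180831671 and 180831679. The exon 180830960 to 180831806 overlapped all of them. LINC01089, on chromosome 12 (121795276 to 121802942, minus strand), had starts at the same base in all 5 models and ends within 1 nt. Its models differed by a retained intron of 464 nt in the last exon, another of 94 nt near the start, and a cassette exon of 154 nt. A retained intron is one that lies inside an exon of another model.

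Across the 49 LINC genes with at least 2 models, cassette exons were found in 24 (49.0%, 35.6 to 62.5%), beside 49.4% of all loci with at least 2 models. They had 34 forms of cassette exon, 45 to 608 nt long, with a median of 110.5 nt, and 12 of 34 were divisible by 3. Forms of 1 exon with different ends were counted apart, as in LINC00665, LINC00667 and LINC02525. Alternative donors (5′ splice sites) were found in 11 of the 49 genes (22.4%, beside 25.2% of all such loci) and alternative acceptors (3′ splice sites) in 12 (24.5%, beside 23.4%). Retained introns were found in 8 genes (16.3%, beside 17.3%), alternative first exons in 9 (18.4%, beside 18%) and alternative last exons in 15 (30.6%, beside 27%). Each of these shares lay near that of all loci, and all 6 intervals included it. Where both forms had to appear in 2 or more models, 3 LINC genes kept a cassette exon, LINC00665, LINC00960 and LINC01278; the other 21 rested on 1 model for a form. That was 6.12% of the 49, beside 9.05% of all loci under the same rule.

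Some splice sites of LINC genes differed by only a few nt. Of 45 pairs of alternative sites, 6 lay within 6 nt of each other. They were the 3 nt pairs of acceptors in LINC00665 and LINC01356, pairs of 4 nt in LINC00339, LINC00678 and LINC03011, and a 6 nt pair in LINC02482. An intron common to all models was kept by 27 of the 49 genes, and by 12 of the 26 genes with at least 3 models. No share over all genes is given beside these counts, the close pairs of sites or the cassette forms divisible by 3. They are therefore not read as traits of LINC genes. LINC02901 alone of the 49 had no event counted under these rules. Its second model skips an exon of 94 nt (158873528 to 158873621). The next exon begins at 158895221 in 1 model and at 158895226 in the other, so neither difference met the rule of matching intron ends.

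The ends of LINC models were less uniform than their starts. Over the 26 genes with at least 3 models, the median distance between the outermost starts of a gene was 45.5 nt and between the outermost ends 91 nt. Over all 2462 genes with at least 3 models these were 33 and 7.5 nt. The starts lay within 100 nt in 16 of the 26 LINC genes (61.5%, beside 70.8% of all) and the ends in 13 (50%, beside 56.8%). LINC00632, known as the source of the circular RNA CDR1as, was among those with the widest spread. Its 3 models (chromosome X, 140709767 to 140773167, plus strand) had 2 first exons 54820 nt apart and 2 last exons, 58307 nt apart at their ends, and 1 of them carried a region of 104 codons.

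LINC00698 had the most exons in 1 model, 9, over 174675 nt of chromosome 3 (62950384 to 63125058, plus strand). LINC00467, LINC00665 and LINC01122 reached 7 exons, and 6 genes (LINC00960, LINC01012, LINC01089, LINC01198, LINC02210 and LINC02904) reached 6. The longest spliced models after those of LINC01278 and LINC00665 were those of LINC02128 (2264 nt in 2 exons), LINC02210 (2218 nt) and LINC03015 (2169 nt). The genomic spans of LINC genes had a median of 9578 nt and ran from 609 to 512145 nt, with 9 over 100 kb. LINC01414 spanned 512145 nt of chromosome 8 with 4 exons at most, and LINC01122 502678 nt of chromosome 2 with 7. The single model of LINC02428 joined 2 exons across an intron of 197305 nt, and those of LINC02315 and LINC00511 held introns of 174684 and 163904 nt. LINC00511, described in several tumours, had 2 models that differed by a cassette exon of 97 nt.

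A coding region was given for 52 of the 215 LINC models (24.2%, 18.9 to 30.3%), beside 86.4% of all models. Among the other classes it was given for 19.7% of -AS, 18.7% of -DT, 31.0% of Ensembl-identifier and 92.1% of protein-coding models. The 52 models belonged to 34 genes. In 14 genes coding and non-coding models stood side by side, and in 20 every model was coding, 15 of them with a single model. The coding and non-coding LINC models had the same median exon number, 3, and median lengths of 1140.5 and 1018 nt.

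The regions were short. Their median was 115 codons (quartiles 102.5 and 126.25, range 4 to 263, last codon included), beside 285 codons over all coding models. Among the other classes the median was 108 codons for -AS, 107 for -DT, 121 for Ensembl-identifier and 292 for protein-coding models. Of the 52 LINC regions, 28 had 100 to 130 codons, 12 had fewer and 12 more. A LINC region took a median of 25.9% of its model (1.01 to 66.3%), beside 56.1% over all coding models. That share was 26.4% for -AS, 24.2% for -DT, 33.9% for Ensembl-identifier and 56.9% for protein-coding models. A median of 326.5 nt lay before the LINC region and 435 nt after it. In 21 models the region lay within 1 exon, and in 19 within the last exon. In 5 models it began within 2 nt of the first base, and in the 5 coding models of LINC01278 it ended within 2 nt of the last base, so that 10 of the 52 regions reached an end of their model to within 2 nt.

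**Figure D4:**
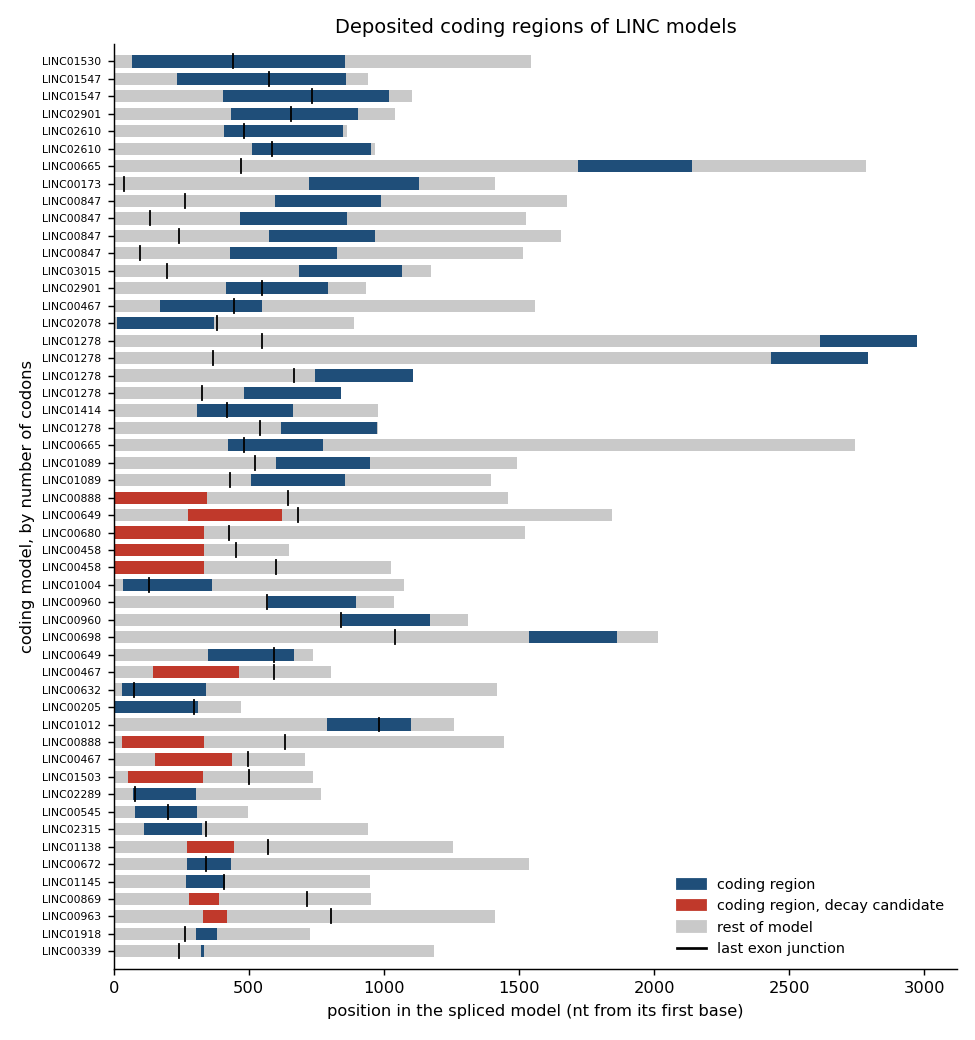
The 52 coding LINC models drawn as spliced RNA (x axis, nt from the first base; 1 row per model, ordered by codons), with the coding region in blue, or in red where it ended more than 50 nt before the last exon junction (black tick). LINC01530 had the longest region, 263 codons, and the 5 regions of LINC01278 reached the end of their models.

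LINC01530 had the longest region, 263 codons, in a model of 1543 nt on chromosome 19 (51591949 to 51594388, minus strand). LINC01547 followed with 208 and 205 codons in its 2 models on chromosome 21, where a cassette exon of 144 nt lay in the longer model with the shorter region. LINC02901 gave 157 and 126 codons. Both models of LINC02610 gave 1 region of 147 codons that began 407 or 512 nt from the first base and stopped 14 nt before the end. The single region of LINC00173 had 136 codons, and that of LINC03015 had 127 in 1 of its 5 models. LINC00847 had the same region of 131 codons in 4 of 5 models, 726 nt past the last junction at its end. The model without it had an intron of 370 nt spliced out of that last exon, downstream of the region. Its exon of 740 nt before that intron still covered the whole place of the region, for which no coding region was given there. LINC01089 had 116 codons in both models that retained its intron of 464 nt and no region in the 3 that spliced it out.

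LINC00467, which other work reported to encode a micropeptide of mitochondrial ATP synthase, had 125, 95 and 106 codons in 3 of its 4 models (chromosome 1, 211382777 to 211432530, plus strand). The fourth model started at an alternative first exon 16382 nt downstream of the first start and had no region. The shortest regions were those of LINC00339 (4 codons, in 1 of 4 models), LINC01918 (26 codons) and LINC00963 (30 codons). Of the 12 genes with at least 2 coding models, 5 gave 1 region in all of them, and the 52 models held 42 distinct regions. LINC00672, with 55 codons in 1 model, was the only one of the 103 that RefSeq lists as protein-coding, under the name LASP1NB.

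A stop codon that lies well before the last exon junction, here by more than 50 nt, is the layout recognised by nonsense-mediated decay, which degrades RNA with such a stop once it is translated. Of the 52 coding LINC models, 12 had it (23.1%, 13.7 to 36.1%), beside 3.14% of all coding models. The share was 18.7% for -AS, 28.9% for -DT, 27.4% for Ensembl-identifier and 2.44% for protein-coding models. The 12 models belonged to 9 genes. LINC00458, LINC00467 and LINC00888 had 2 each, and LINC00649, LINC00680, LINC00869, LINC00963, LINC01138 and LINC01503 had 1 each.

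The distance from the end of the region to the last junction ranged among them from 60 nt in LINC00649 to 386 nt in LINC00963. In LINC00888, listed by RefSeq as the small nucleolar RNA host gene SNHG33, 2 of 4 models had regions of 101 and 115 codons that stopped at the same place, 300 nt before the last junction. In LINC00467 the stops lay 61 and 129 nt before the junction in the models of 95 and 106 codons, while the model of 125 codons stopped 102 nt past its last junction. LINC00649 likewise had 1 model with the stop 60 nt before and 1 with the stop 77 nt past its last junction. Whether any of these RNAs is degraded was not tested.

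Of 6 LINC names in a stem cell list, not all of them particular to pluripotent cells, 2 had models under their LINC name. This list and those that follow were chosen with earlier results of these data known. LINC00458 had 2 models on chromosome 13 (54115787 to 54132866, minus strand) with the first 2 exons in common, and different ends 11446 nt apart. Both gave 1 region of 111 codons starting 2 nt from the first base, and its stop lay 267 nt before the last junction in 1 model and 117 nt in the other. LINC00678 had 5 models on chromosome 11 (27616682 to 27634581, minus strand), all without a coding region. They shared the first intron and differed by cassette exons of 67 and 76 nt, 3 acceptors and a retained intron of 88 nt. LINC00617 was listed under its current name TUNAR with 1 model. LINC-ROR, LINC01108 and LINC-PINT had no model.

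Of 8 LINC RNAs known from neural tissue, LINC00632 (3 models) and LINC01122 (2 models) were present. The models of LINC01122 differed by a cassette exon of 68 nt and had no coding region. The other 6, among them the hosts of the neural microRNAs miR-9 (LINC00461) and miR-124 (LINC00599), had no model under either name. MIR124-2HG, another host of miR-124 and the nearest gene to LINC01414 (4616 nt), was in the catalogue. Of 20 LINC names that are widely studied or were later tied to a small protein, LINC00205, LINC00467, LINC00511, LINC00662 and LINC00665 had models, and 6 more had them under another symbol. Those 6 were NBDY, MTLN, CHASERR and CYTOR, with 1 model each, and SMIM26 and SMIM30, with 2 each. The other 9 had none. As 96 of the 2315 LINC symbols in RefSeq had a model (4.15%, 3.41 to 5.04%), beside 41.9% of 20056 protein-coding symbols, most LINC names were without one.

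LINC genes were spread over 23 chromosomes, with 11 on chromosome 1, 9 on chromosome 17 and 8 each on chromosomes 2, 6 and 12. On the plus strand lay 59, and on the minus strand 44. The distance to the nearest other gene with a model had a median of 63658 nt (quartiles 10000.5 and 220711 nt), and was over 100 kb for 43 genes. It is a distance between genes of this catalogue, so that genes without a model are passed over. No distance over all genes or other classes is given beside it, so isolation is not read as a trait of LINC genes. The most isolated were LINC01515 (1949435 nt from REEP3), LINC02315 (1461213 nt), LINC02301 (1420424 nt), LINC00458 (1375804 nt from CNMD) and LINC00052 (880677 nt from MRPL46).

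The spans of 6 LINC genes (5.83%) overlapped another gene, beside 8.76% of all genes. Exons overlapped in 4 of them. LINC00662 and LINC02987 overlapped each other on opposite strands, LINC01011 overlapped NQO2 on the same strand and NQO2-AS1 on the other, and LINC00339 overlapped a gene listed under its own name joined to an Ensembl identifier. For LINC01011 and LINC00339 the assignment of a model to 1 of the overlapping genes is uncertain. LINC00960 and LINC00649 crossed a gene on the opposite strand within introns.

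Some LINC genes had a transcription factor or growth factor gene as their nearest gene, and a few are given here, chosen after their values were seen and not counted against other neighbours. LINC01833 lay 5955 nt from SIX3, a forebrain and eye transcription factor, and LINC02610 lay 6569 nt from HES6, a neural HES family regulator. LINC01607 lay 15902 nt from HEY1, a Notch target, and LINC00678 lay 22922 nt from BDNF, a neurotrophin. LINC01152 and LINC00511 had SOX9, a regulator of cartilage, testis and glia, as their nearest gene, but at 81464 and 279563 nt, farther than the median LINC gene. These are distances and carry no information on control of the neighbour.

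An opposite-strand start of another gene within 1 kb was found for 12 LINC genes (11.7%, 6.79 to 19.3%), beside 17.4% of all genes. In all 12 the nearest such start faced away from that of the LINC gene (head to head). The share over all genes sets no direction. The 12 formed 10 pairs with starts 48 to 237 nt apart. The nearest pair was LINC01356 and LINC01357 (48 nt), followed by LINC00882 with DUBR (62 nt), LINC00662 with LINC02987 (73 nt), LINC00863 with NUTM2A-AS1 (76 nt), LINC01547 with SLX9 (87 nt) and LINC02482 with a gene listed by an Ensembl identifier (88 nt). LINC00551, which RefSeq calls ARGLU1-DT, started 115 nt from ARGLU1, and LINC00205 started 145 nt from POFUT2, an O-fucosyltransferase gene.

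Start-site windows of RefSeq (GRCh38.p14, 250 bases before to 50 after the start) were found for 68 of the 103 genes, 87 windows in all, and 49 of the 68 genes had a model that began inside one. The GC content of these 87 had a median of 61.0% (quartiles 51.3 and 68.2%). It was 47.3% over 1660 windows of LINC genes without a model, 62.3% over 22194 windows of protein-coding genes and 58.7% over all 35116 windows. The ratio of observed to expected CpG had medians of 0.713, 0.242, 0.737 and 0.579 in the same order. It was above 0.6 in 53 of the 87 windows (60.9%, 50.4 to 70.5%), beside 15.0% for LINC genes without a model and 62.1% for protein-coding genes. The share for LINC genes with a model thus lay near that of protein-coding genes, as the plot of CpG ratios shows. The 2 groups are not alike, because the protein-coding windows were of 15841 genes with or without a model. Windows of protein-coding genes with a model were not taken apart. Windows of 1 gene can overlap each other.

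**Figure D5:**
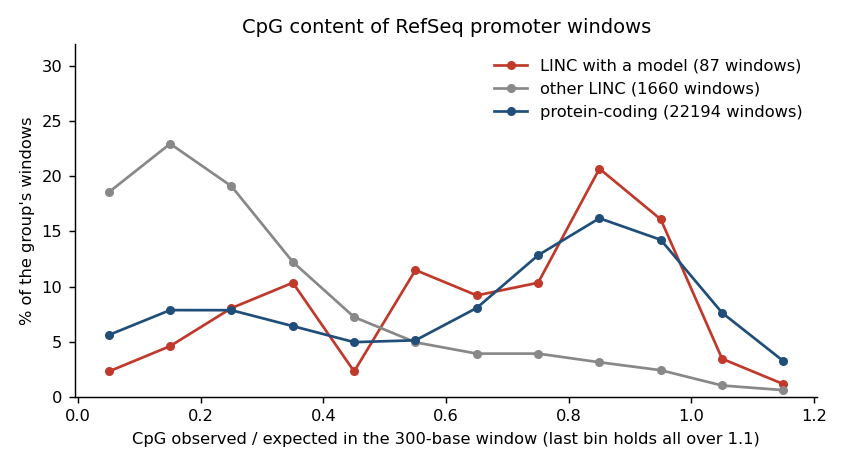
Share of windows (y axis, %) by the ratio of observed to expected CpG (x axis, bins of 0.1) for RefSeq start-site windows of LINC genes with a model (red, 87 windows), other LINC genes (grey, 1660) and protein-coding genes (blue, 22194). Red and blue were both highest in the bin from 0.8, and grey in the bin from 0.1. The blue windows were of genes with or without a model.

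Promoter motifs were searched on both strands. GGGCGG, the core of the GC box bound by SP1, was in 56 of the 87 windows (64.4%), beside 45.0% of all windows, 16.7% for LINC genes without a model and 56.3% for protein-coding genes. CCAAT, the core bound by NF-Y, was in 35 (40.2%), beside 34.6% of all windows. TATAAA, the core of the TATA box, was in 7 (8.05%), beside 11.5%, and the 7 belonged to LINC00632, LINC01278, LINC01806, LINC01896, LINC02128 and LINC02901, the last with 2 windows. In 4 of these 7 windows, those of LINC00632, LINC01896 and LINC02128 and 1 of LINC02901, no catalogue model began. ATGCAAAT, the octamer bound by POU factors such as OCT4, was in 1 window (1.15%), beside 1.77%, that of LINC00404, in which no model began either. A match is a string of letters in this window and not a shown site of binding.

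Of 9 windows of genes in head-to-head pairs in which a model began, 7 held GGGCGG, 2 held CCAAT (LINC00863 and LINC02987) and 0 held TATAAA. LINC00863 and LINC00882 had no GGGCGG. The CpG ratios of the 9 windows had a median of 0.872 and ran from 0.319 (LINC02987) to 1.01 (LINC00882). The windows of 3 of these genes are printed, among them the 2 with the most GGGCGG. They were those of LINC01357 (chr1:112849607-112849906, plus strand, GC 70.0%, 1 match to GGGCGG), LINC01547 (chr21:44939864-44940163, minus strand, GC 76.3%, 3 matches) and LINC00205 (chr21:45287802-45288101, plus strand, GC 72.3%, 6 matches). Each runs 5′ to 3′ on the strand of the LINC gene in GRCh38.p14, from RefSeq, with matches to GGGCGG on either strand in capitals; none held CCAAT or TATAAA.
LINC01357: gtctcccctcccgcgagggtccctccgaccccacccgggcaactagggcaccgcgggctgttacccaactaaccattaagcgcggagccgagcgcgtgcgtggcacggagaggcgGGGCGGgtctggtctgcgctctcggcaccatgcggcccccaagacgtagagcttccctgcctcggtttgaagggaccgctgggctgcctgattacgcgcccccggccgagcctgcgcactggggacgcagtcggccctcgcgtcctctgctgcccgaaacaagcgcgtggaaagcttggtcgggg
LINC01547: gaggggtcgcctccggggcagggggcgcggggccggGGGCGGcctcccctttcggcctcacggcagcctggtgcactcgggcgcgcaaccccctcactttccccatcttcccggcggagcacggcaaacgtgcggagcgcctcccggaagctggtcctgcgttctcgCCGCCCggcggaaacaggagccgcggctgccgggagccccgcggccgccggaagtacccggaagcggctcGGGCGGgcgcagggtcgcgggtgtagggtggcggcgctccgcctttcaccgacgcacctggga
LINC00205: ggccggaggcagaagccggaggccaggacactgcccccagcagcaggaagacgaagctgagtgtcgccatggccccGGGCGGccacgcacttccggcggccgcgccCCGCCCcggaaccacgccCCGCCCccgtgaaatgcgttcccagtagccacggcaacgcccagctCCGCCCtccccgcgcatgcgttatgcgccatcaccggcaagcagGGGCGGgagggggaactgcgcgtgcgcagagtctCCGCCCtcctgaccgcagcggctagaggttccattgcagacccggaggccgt

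A group of 4 LINC genes on chromosome 1 shared sequence. Start-site windows of LINC00623, LINC00869, LINC01138 and LINC01145 gave 5 pairs with 57 to 163 words of 14 bases in common, while no other pair of LINC genes with a model shared more than 9. Aligned without gaps, LINC00623 and LINC01138 were identical at 98.6% of 218 bases, LINC01138 and LINC01145 at 97.5% of 202, LINC00623 and LINC01145 at 96.7% of 120, and LINC00869 and LINC01145 at 98.9% of 180. The other 2 pairs, both with LINC00869, were not alike over 100 bases or more, at 44.2% of 147 with LINC01138 and 40.2% of 169 with LINC00623. With a least overlap of 50 bases, chosen after the values were seen, LINC01138 and LINC00869 were identical at all of 82 bases, while LINC00623 and LINC00869 reached 46.2% of 65. A stretch of 120 bases is printed for 3 of them, 5′ to 3′ from RefSeq (GRCh38.p14), because it shows how little separates these 3 start regions. Capitals mark bases that differ from LINC00623. The stretches lie at chr1:120912967-120913086 (plus strand, LINC00623), chr1:148459969-148460088 (minus strand, LINC01138, 1 difference) and chr1:145216003-145216122 (minus strand, LINC01145, 4 differences).
LINC00623: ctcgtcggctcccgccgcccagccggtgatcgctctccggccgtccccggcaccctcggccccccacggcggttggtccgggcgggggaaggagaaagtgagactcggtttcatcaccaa
LINC01138: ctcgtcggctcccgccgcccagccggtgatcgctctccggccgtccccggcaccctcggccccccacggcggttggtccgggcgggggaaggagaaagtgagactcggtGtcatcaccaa
LINC01145: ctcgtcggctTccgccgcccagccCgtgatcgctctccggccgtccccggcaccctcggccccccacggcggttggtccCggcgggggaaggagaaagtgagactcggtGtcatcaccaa

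Another stretch of 120 bases was the same in LINC01145 (chr1:145216183-145216302, minus strand) and LINC00869 (chr1:149606882-149607001, plus strand), with 0 differences, and is printed once.
LINC01145 and LINC00869: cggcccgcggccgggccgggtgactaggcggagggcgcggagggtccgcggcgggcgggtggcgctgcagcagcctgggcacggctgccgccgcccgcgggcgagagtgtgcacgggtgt

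Models of LINC00623 and LINC00869, each with 3 models, had exons of 5 lengths in common (236, 238, 239, 347 and 466 nt), 3 of which no other LINC gene had. Both genes had a pair of donors 119 nt apart. LINC01138, LINC00869 and LINC01145 carried short coding regions, of 57, 37 and 49 codons. The printed stretches of LINC01138, LINC01145 and LINC00869 lie upstream of the first base of their models, but for a few bases in LINC00869. Transcript sequences of these genes were not compared, and how well reads could be told apart between them was not tested.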

How the data were processed

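The values used were coordinates (nt) of transcripts, exons and coding regions in 1 catalogue of transcript models deposited by the authors, which names PacBio as source on each line, per the file. It holds no count, abundance or value per library, so no p-value was made, the edgeR test planned for counts was not run, and depth is unknown. Per the labels, the 40 libraries were of polyadenylated RNA, with 15 PCR cycles (17 for monosomes). Per the submitters' processing notes, STAR 2.7.8a and Salmon 1.9.0 were used, with no role named. Not given in the sources used here are the genome build, the annotation, the filters, the software that made the models and their coding regions, and which libraries entered the catalogue. Catalogue coordinates are printed as deposited, counted from 1, with no build.

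Introns were the gaps between exons. Splicing differences were counted within a gene, chromosome and strand, and alternative splice sites as pairs of sites that share the other end of the intron. A cassette exon was counted only where an intron of another model had exactly the outer ends of the 2 introns beside the exon. Alternative first or last exons are those without overlap, where exons linked through another that overlaps both were counted as 1. Shares have 95% Wilson intervals. The functions were tested on made-up models. Python 3.11.15, NumPy 2.4.6, SciPy 1.17.1 and matplotlib 3.10.9 were used.

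RefSeq's tables (GRCh38.p14) gave gene types, names and start-site windows. Of the 103 genes, 96 matched by symbol and 7 by 1 synonym, and 35 had no window. The members, gene lists, limits and tests were chosen with earlier results of these data known. Genes were named by rank (most models, exons, cassette exons, decay candidates; longest model, span, coding region; shortest coding region; nearest head-to-head pair; most isolated) and as members of the lists of stem cell (6), neural (8) and widely studied or peptide (20) LINC names. Other genes named were chosen after their values were seen.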

Additional observations from a re-analysis of the deposited data

How the results depend on the processing

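Of 24 alternatives over 8 results, 20 stayed within the 95% interval of the value given in the report, and 4 did not, each by its own construction. Counting only overlaps on the same strand lowered the share of LINC genes that overlap another gene from 5.83% to 1.94% (2 of 103). Requiring each form in at least 2 models lowered the share of genes with a cassette exon from 49.0% to 6.12% (3 of 49), and that over all loci from 49.4% to 9.05%. Requiring at least 100 codons lowered the share of coding LINC models from 24.2% to 18.6% (40 of 215). Counting genes with at least 1 coding model in place of models gave 33.0% (34 of 103). Leaving out chromosomes X and Y, or adding the 3 joined identifiers that hold a LINC name, kept every share and median tried within its interval. Chromosome X held only 2 of the 103 LINC genes and Y held 0, so neither change could move a value far. Any stop upstream of the last junction made 26.9% of coding models decay candidates (14 of 52), beside 23.1%.

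No paired analysis was possible because the catalogue has no value per library, and for the same reason no replicate was left out. Depth is unknown, so the completeness of a gene's models is unknown too, and single-exon RNAs are not in the catalogue. Coding regions are reading frames given in the catalogue and not measured translation. The last codon of a region is counted, and whether it is the stop codon was not read from sequence.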
